A study of Mus musculus with 2 samples.

Results

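A small group of colon monocytes was marked by transcripts of Arg1, Saa3, Nos2 and Spp1. The group holds the cells of cluster 11 in the submitters' clustering of the integrated data at resolution 0.5, taken as numbered in the deposited cell metadata, with no gene threshold. There were 268 such cells of 13492, namely 217 of the 6466 cells of the wild type library and 51 of the 7026 cells of the library labelled E4BP4 transgenic. They were described across genes against cluster 3, the larger monocyte cluster, which held 636 cells in wild type and 390 in the library labelled transgenic. Both libraries came from colon lamina propria of C57BL/6 mice aged 8 weeks that had received 2.0% dextran sulphate sodium (DSS, a polymer that injures the colon epithelium) in drinking water for 7 days, then 7 days of plain water, and were killed on day 14. Live cells bearing CD45, the surface protein of white blood cells, were sorted and run on the droplet platform of 10x Genomics with its 5' chemistry (v1.1). The transgenic mice are described as overexpressing E4BP4, the transcription factor encoded by Nfil3, in macrophages only. The promoter that drives the transgene and the number of animals behind a library are not given in the labels. Each genotype is 1 library, so no test across animals could be made. The summed UMIs behind the levels were 1321243 in wild type cluster 11 and 3250317 in cluster 3, with medians of 6400 and 5290 per cell, and 238595 and 1852771 in the library labelled transgenic, with medians of 4615 and 4863. A ratio is followed by its exact 95% interval, which covers counting error only.

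Monocytes leave the blood, enter injured tissue and there turn towards inflammatory, repair or resident macrophage states. Arginase 1, encoded by Arg1, and inducible nitric oxide synthase, encoded by Nos2, draw on the same amino acid, arginine, and are classically used to mark opposite macrophage states. Saa3 encodes an acute-phase serum amyloid protein that macrophages secrete, and Spp1 encodes osteopontin, a secreted matrix phosphoprotein. In low oxygen, prolyl hydroxylases no longer mark HIF-1 alpha for destruction, and the stabilised factor raises glycolytic enzymes, lactate export and a set of stress genes. Type I and type II interferons act on a different set of genes, which includes antiviral effectors, guanylate-binding proteins and the antigen-presentation regulator Ciita.

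The 4 marker genes were all far above cluster 3 in the wild type library. Levels are CPM, the UMIs (counted molecules) of a gene per 1000000 UMIs summed over the cells of a cluster. Arg1, on mm10 chr10:24915221-24927484, stood at 4011 CPM in cluster 11 and 124 CPM in cluster 3, a ratio of 32.4 (29.3 to 35.98). Saa3, on chr7:46711998-46715700, stood at 9511 against 522 CPM, a ratio of 18.2 (17.3 to 19.2). Both were present in a majority of the cluster's cells and neither level rested on a few of them: the 5 cells of most UMIs held 13.4% of Arg1 and 19.5% of Saa3. Nos2, on chr11:78920787-78960254, stood at 1086 against 10.5 CPM, a ratio of 104 (73.95 to 151). Spp1, on chr5:104435118-104441050, stood at 3724 against 104 CPM, a ratio of 35.7 (31.98 to 39.98), and 5 cells held 38.7% of that. Of the 15 clusters, cluster 11 held the highest wild type level of each marker. The next-highest wild type levels were 754 CPM of Arg1, 2436 of Saa3 and 146 of Nos2, all in cluster 7, and 1259 of Spp1 in cluster 5. The clusters were made from the expression of these cells, so cluster 11 against cluster 3 is a description and not a test.

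**Figure D1:**
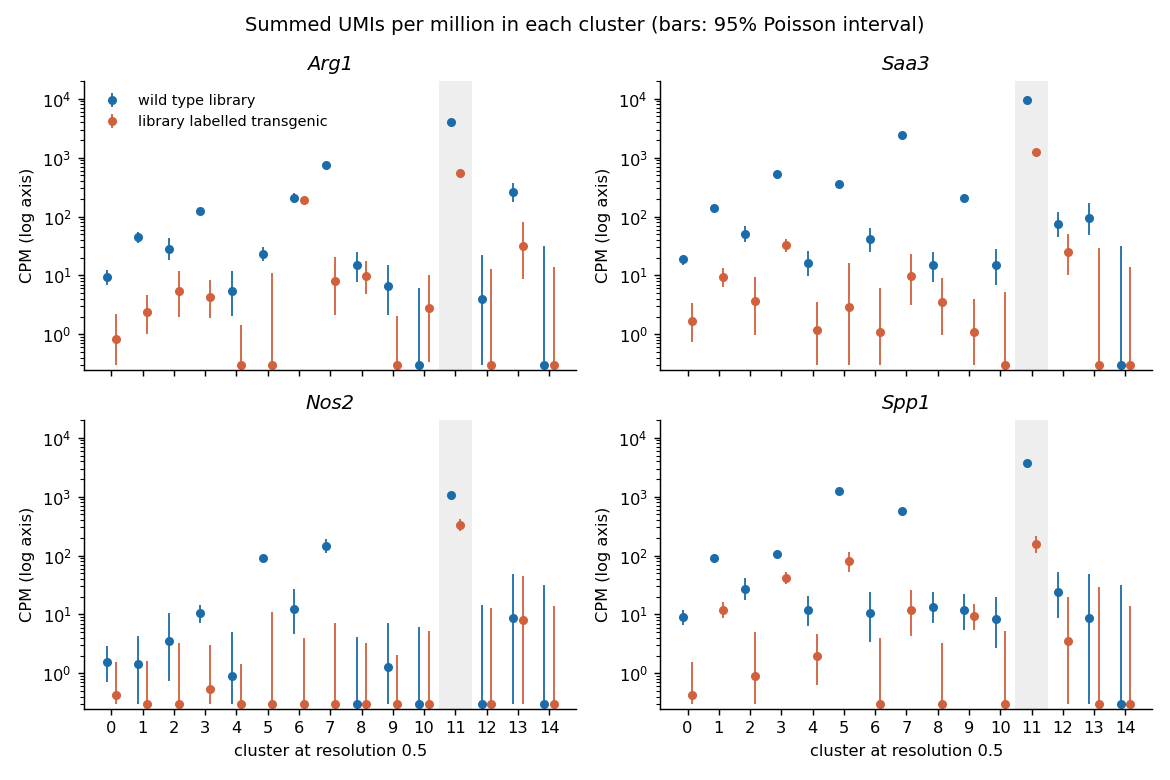
CPM of Arg1, Saa3, Nos2 and Spp1 (log axis) in each of the 15 clusters of each library, as points with 95% Poisson intervals; clusters with 0 UMIs are drawn at the foot of the axis. Cluster 11, shaded, has the highest wild type point in all 4 panels, and its point for the library labelled transgenic lies below the wild type point in each.

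A UMI of Arg1 was found in 147 of 217 wild type cluster 11 cells (67.7%, 95% Clopper-Pearson interval 61.1 to 73.9), of Saa3 in 154 (71.0%), of Nos2 in 122 (56.2%) and of Spp1 in 112 (51.6%). B cells, which should lack these transcripts, give the level of free RNA: in the 2115 wild type cells of cluster 0 the shares were 2.55%, 4.78%, 0.426% and 2.13%. The median depth was 2509 UMIs in those B cells and 6400 in cluster 11. Thinned to 2000 UMIs per cell, which left out 16 cells of cluster 11, the counts were 126, 132, 95 and 82 of 201 cells. All 4 transcripts were found together in 56 cells (25.8%, 20.1 to 32.2) and none of them in 15 (6.91%, 3.92 to 11.1).

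Arg1 and Nos2 occurred in many of the same cells. Of the 217 wild type cells, 110 held both transcripts, 37 held Arg1 without Nos2, 12 held Nos2 without Arg1 and 58 held neither. Ranked over the 217 cells by UMIs per 10000, Arg1 and Nos2 had a Spearman correlation of 0.61, Arg1 and Spp1 0.47, Nos2 and Saa3 0.41, Arg1 and Saa3 0.21, and Saa3 and Spp1 0.00. These cells share 1 library and each gene is divided by the cell's own total, so the values are given as a description. Arg1 had a correlation of 0.06 with the number of UMIs per cell.

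**Figure D2:**
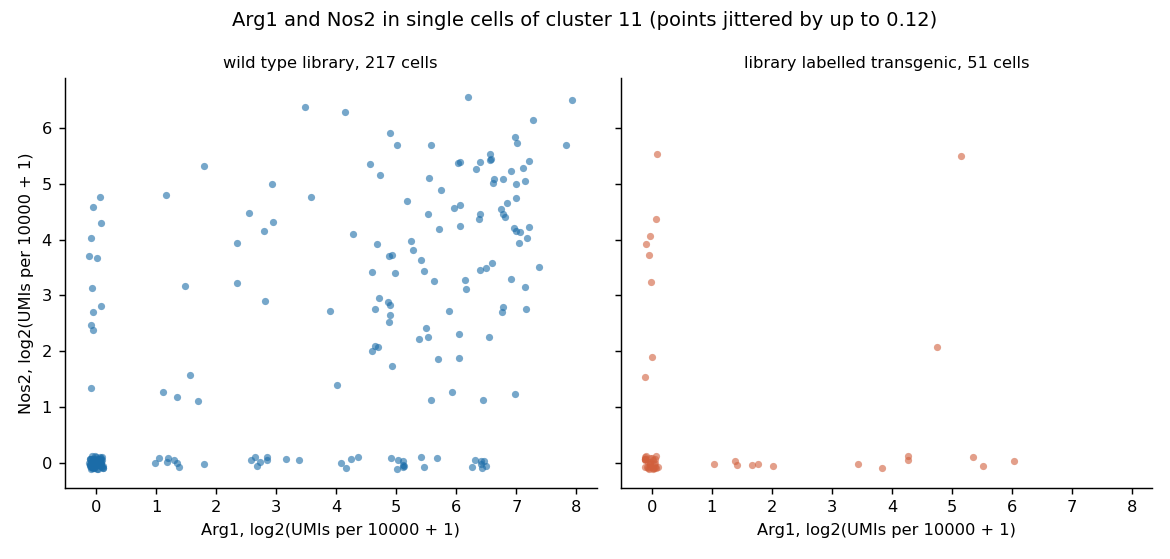
Arg1 (x axis) and Nos2 (y axis) in single cells of cluster 11, as log2(UMIs per 10000 + 1), with points jittered by up to 0.12. In the wild type library 110 of 217 cells lie off both axes, and in the library labelled transgenic 2 of 51 do.

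The cells carried monocyte transcripts, with gaps. Cd14, the lipopolysaccharide co-receptor, was found in 99.5% of wild type cluster 11 cells and Csf1r, the growth factor receptor of monocytes and macrophages, in 76.0%. Csf1r stood at 395 CPM against 503 CPM in cluster 3. Of 19 monocyte markers tested (at least 20 UMIs over both clusters), 3 were at least 2-fold higher than in cluster 3 and 8 at least 2-fold lower, beside 7.16% and 26.2% of all 8472 genes tested. The higher ones were Hp, which encodes haptoglobin, at 5720.4 CPM (ratio 7.02, 6.72 to 7.34), F13a1, a coagulation factor subunit (2.79, 2.51 to 3.10), and Fn1, fibronectin (2.51, 2.34 to 2.70). The lower ones included the chemokine receptor Ccr2, at 136 against 983 CPM (0.139, 0.119 to 0.161), and Ly6c2 at 114 against 397 CPM (0.286, 0.240 to 0.339). Cd14 does not separate the cluster from cluster 5, the cluster highest in the neutrophil transcript S100a8, where 93.3% of the cells held it at 5635 CPM, whereas Csf1r was found in 17.9% of those cells at 67.9 CPM. In B cells of cluster 0 the shares were 6.76% for Cd14 and 2.17% for Csf1r. The label of monocyte thus rests on Csf1r and part of the list, while Ccr2 and Ly6c2, which define newly arrived monocytes, were low.

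Other cell types were looked for through their markers. Neutrophil receptor Cxcr2 was found in 0 of 217 cells, which allows a share of cells with a UMI of up to 1.69% (upper Clopper-Pearson bound). In cluster 5 of that library, where S100a8 was highest, 63.9% of the cells held one. Ly6g had 4 UMIs in cluster 11. Csf3r stood at 37.8 CPM, against 42.5 CPM in cluster 3. S100a8, an abundant neutrophil transcript, stood at 2017 CPM, against 549 CPM in cluster 3 (3.67, 3.46 to 3.90) and 87918 CPM in cluster 5 of that library. In cluster 11, 67.7% of its UMIs lay in 5 cells. The neutrophil list was higher as a whole: 7 of its 12 tested genes were at least 2-fold higher than in cluster 3, with a summed level of 35143 CPM against 4656 CPM. Most of that sum was Cxcl2 at 27420.4 CPM, a chemokine gene that activated monocytes also transcribe. Cxcl2 was not the only higher member: S100a8 was another, the highest ratio of the list was 17.4, and 1 gene was lower. The part of neutrophil RNA in the results was not tested. The 18 mature macrophage markers had 0 members higher and 8 of 12 lower. The dendritic cell gene Flt3 had 0 UMIs, and the T cell gene Cd3e stood at 7.57 CPM. Their lists were not lower in sum: dendritic cell genes had 512 against 416 CPM in cluster 3, with 1 of 5 tested higher and 3 lower. T cell and innate lymphoid genes had 145 against 36.9 CPM, with 1 of 3 tested higher (27.1-fold) and 0 lower. The part of such RNA was not tested. Of the 217 cells, 202 lay in cluster 3 of the submitters' coarser clustering at resolution 0.4, 14 in its cluster 5 and 1 in its cluster 1.

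Across all genes the wild type contrast was uneven in direction. Of 8472 genes with at least 20 UMIs over both clusters, 607 (7.16%) were at least 2-fold higher in cluster 11 and 2217 (26.2%) at least 2-fold lower, and the median log2 ratio was −0.42. A few transcripts took a large part of the total: Fth1, the ferritin heavy chain, stood at 87387 CPM in cluster 11 and 15130.2 CPM in cluster 3. Scaled by the median of ratios instead of the total, 987 genes were higher and 1421 lower, so that 41.0% of called genes were higher in place of 21.5%, and the median was −0.07. List medians below should be read against the median of all genes. The lists were drawn up with earlier results of these data known, and the counts describe them without a test.

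Genes ranked by the interval bound nearest to 1 were led by secreted factors of inflammation. Csf3, the granulocyte growth factor G-CSF, stood at 272 against 1.54 CPM, a ratio of 177 (74.99 to 547). Cxcl3, a neutrophil-attracting chemokine, stood at 8879 against 129.5 CPM (68.5, 62.2 to 75.7), in 75.6% of the cells against 7.39% in cluster 3. Cluster 5 held 3274 CPM of Cxcl3. Ptges, the inducible synthase of prostaglandin E2, stood at 372 against 7.38 CPM (50.4, 33.5 to 79.5). These are signals, or makers of signals, to other cells. The ranking also held Il1a (41.6, 33.6 to 52.2), Inhba, which encodes the activin A subunit (37.8, 29.01 to 50.03), Cxcl1 (33.1, 27.97 to 39.5), the protease inhibitor Slpi (25.2, 23.9 to 26.5, at 12328 CPM) and the arginine transporter Slc7a2 (54.1, 22.5 to 170.0). Membrane proteins among them were Pdpn, Procr, Gja1 and Cd9, with ratios from 19.6 to 47.4. Has1, a hyaluronan synthase, had 52 UMIs against 0, at least 42.6-fold higher if 0 is taken as 3 UMIs over the cluster, but all 52 lay in 5 cells.

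Genes of the hypoxia response were mostly higher. Of 23 tested genes 19 were at least 2-fold higher in wild type cluster 11 than in cluster 3 and 1 was lower, with a median log2 ratio of 1.98 against −0.42 for all genes. Hilpda, which blocks lipid droplet breakdown, stood at 859 against 42.5 CPM (20.2, 16.9 to 24.3). Egln3, a prolyl hydroxylase that is itself a HIF target, stood at 198 against 8.31 CPM (23.9, 16.03 to 36.9). Ero1l, an oxidase of the endoplasmic reticulum, stood at 543 against 39.1 CPM (13.9, 11.5 to 16.9). The mitophagy receptor Bnip3 (8.85, 7.62 to 10.3), the mTOR inhibitor gene Ddit4 (7.19, 6.37 to 8.14) and Ndrg1 (6.94, 5.54 to 8.74) followed. Vegfa, the vessel growth factor, was higher at 226 against 50.8 CPM (4.44, 3.66 to 5.41), and the transcript of Hif1a itself at 699 against 332 CPM (2.10, 1.92 to 2.30). The lower member, Car9, had 2 UMIs against 18, a ratio of 0.273 (0.0308 to 1.14). With median-of-ratios scaling the count was again 19 higher and 1 lower.

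Glycolysis genes stood higher along most of the pathway. Of 20 tested, 15 were at least 2-fold higher and 1 lower, with a median log2 ratio of 1.47. Glucose entry and its regulation were represented by the transporter Slc2a1 (4.86, 4.08 to 5.80) and by Pfkfb3, whose product activates phosphofructokinase (11.3, 8.89 to 14.5, at 285 against 25.2 CPM). Later enzymes had smaller ratios and higher levels: Gapdh stood at 2097 CPM (2.25, 2.14 to 2.38), Pkm at 2086 CPM (2.40, 2.28 to 2.53) and Tpi1 at 968 CPM (3.10, 2.85 to 3.37). Ldha, which turns pyruvate into lactate, stood at 1745 against 625 CPM (2.79, 2.63 to 2.97), and the lactate exporter gene Slc16a1 at 59.04 against 7.38 CPM (7.995, 5.004 to 13.2). Aldoa fell just short of the 2-fold limit at 1.998, and the bifunctional enzyme gene Pfkfb4 was lower at 0.382 (0.219 to 0.630). Nuclear genes of the respiratory chain did not separate in this way: 0 of 20 were 2-fold higher or lower, and their median log2 ratio was −0.35.

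**Figure D3:**
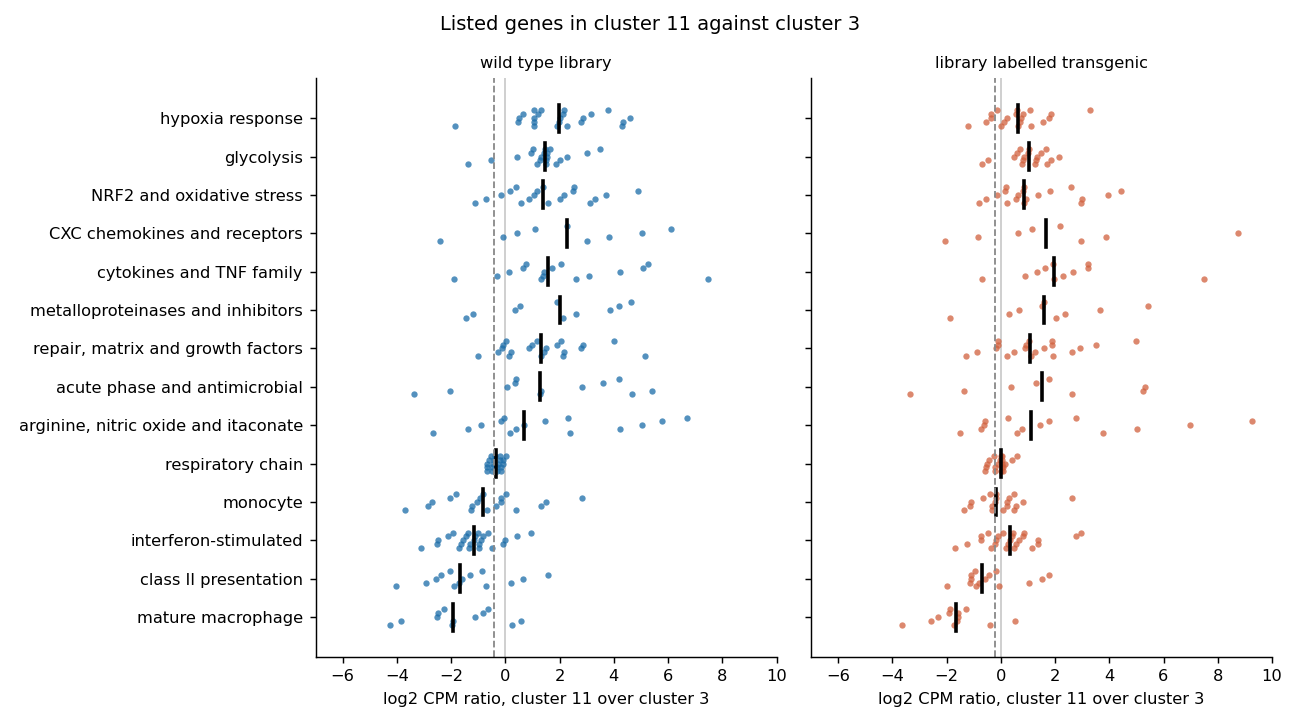
Log2 CPM ratio of cluster 11 over cluster 3 for each tested gene (points) of 14 gene lists, with the list median as a bar, in the wild type library (left) and the library labelled transgenic (right); the dashed line is the median of all tested genes. In wild type the medians run from 2.25 for CXC chemokines and receptors to −1.95 for mature macrophage genes.

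The upstream sequences of 4 of these genes are shown because HIF acts through a short core motif, ACGTG or GCGTG. Each is the 250 bases before the start of the RefSeq gene on build GRCm38.p6 (mm10), 5′ to 3′ on the gene's strand, with matches on either strand in capitals; CACGTG holds the core on both strands, with overlap. Egln3 is chr12:54203875-54204124 on the minus strand, Ldha chr7:46845554-46845803, Slc16a1 chr3:104638414-104638663 and Hilpda chr6:29272238-29272487 on the plus strand.
Egln3: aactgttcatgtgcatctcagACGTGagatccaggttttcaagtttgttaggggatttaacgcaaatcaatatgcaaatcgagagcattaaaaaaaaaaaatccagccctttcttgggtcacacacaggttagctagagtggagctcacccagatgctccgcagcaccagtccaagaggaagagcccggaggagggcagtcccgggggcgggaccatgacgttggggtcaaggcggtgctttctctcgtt
Ldha: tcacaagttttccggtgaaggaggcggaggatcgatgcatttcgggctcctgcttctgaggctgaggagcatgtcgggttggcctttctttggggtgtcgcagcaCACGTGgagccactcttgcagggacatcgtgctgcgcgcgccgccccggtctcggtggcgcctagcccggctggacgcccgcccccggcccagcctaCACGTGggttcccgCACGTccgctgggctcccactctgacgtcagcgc
Slc16a1: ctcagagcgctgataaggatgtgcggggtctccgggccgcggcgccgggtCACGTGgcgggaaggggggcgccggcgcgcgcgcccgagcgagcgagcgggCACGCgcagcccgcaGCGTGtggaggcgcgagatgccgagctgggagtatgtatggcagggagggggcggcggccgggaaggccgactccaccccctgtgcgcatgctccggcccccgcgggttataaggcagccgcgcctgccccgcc
Hilpda: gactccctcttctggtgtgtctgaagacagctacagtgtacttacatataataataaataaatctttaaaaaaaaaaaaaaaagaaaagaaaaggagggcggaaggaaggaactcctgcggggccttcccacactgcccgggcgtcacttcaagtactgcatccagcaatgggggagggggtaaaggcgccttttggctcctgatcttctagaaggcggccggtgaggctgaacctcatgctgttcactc
The Egln3 window holds 1 match, 229 to 225 bases upstream of the start. The Ldha window holds 5 matches, overlaps counted, the nearest 34 to 30 bases upstream, and that of Slc16a1 holds 4. The Hilpda window shown, although its gene had the ratio of 20.2 above, holds no match. Hilpda and Ldha each have 2 listed windows, of which only the first was shown and counted. Of the 34 glycolysis and hypoxia genes that were at least 2-fold higher, 31 had a window and 24 of those (77.4%) held the core, beside 38.6% of all 27025 gene promoters and 58.9% of the tested genes' windows. Over all 467 matched genes that were 2-fold higher the share was 54.8%, below that of the tested genes. A match is a description of letters in this window, not a bound site.

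Within cluster 11 the hypoxia and glycolysis transcripts varied with Arg1 and Nos2 from cell to cell. Cells with both transcripts had a median of 124 hypoxia-list UMIs per 10000 (quartiles 96.7 and 149.9) and 176 glycolysis-list UMIs (146 and 217). Cells with neither had 46.1 (35.4 and 59.3) and 58.8 (46.8 and 77.4), although their median depth was alike, 6244.5 UMIs against 6345.5. The quartile ranges of these 2 kinds of cells did not overlap for either list. Cells with Arg1 alone lay between, at 82.9 and 119, and the 12 cells with Nos2 alone stood at 121 and 139. As a description over the 217 cells, the hypoxia list had a Spearman correlation of 0.74 with Nos2, 0.68 with Arg1 and 0.26 with Saa3, and 0.81 with the glycolysis list. Even the cells with neither transcript were above the cluster 3 medians, which were 27.2 for hypoxia and 46.3 for glycolysis. The acute-phase list, which holds the marker Saa3, had medians of 352 in cells with both transcripts and 142 in cells with neither. The part of Saa3 in that difference was not separated. Class II presentation genes went the other way, at 32.0 and 73.2.

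**Figure D4:**
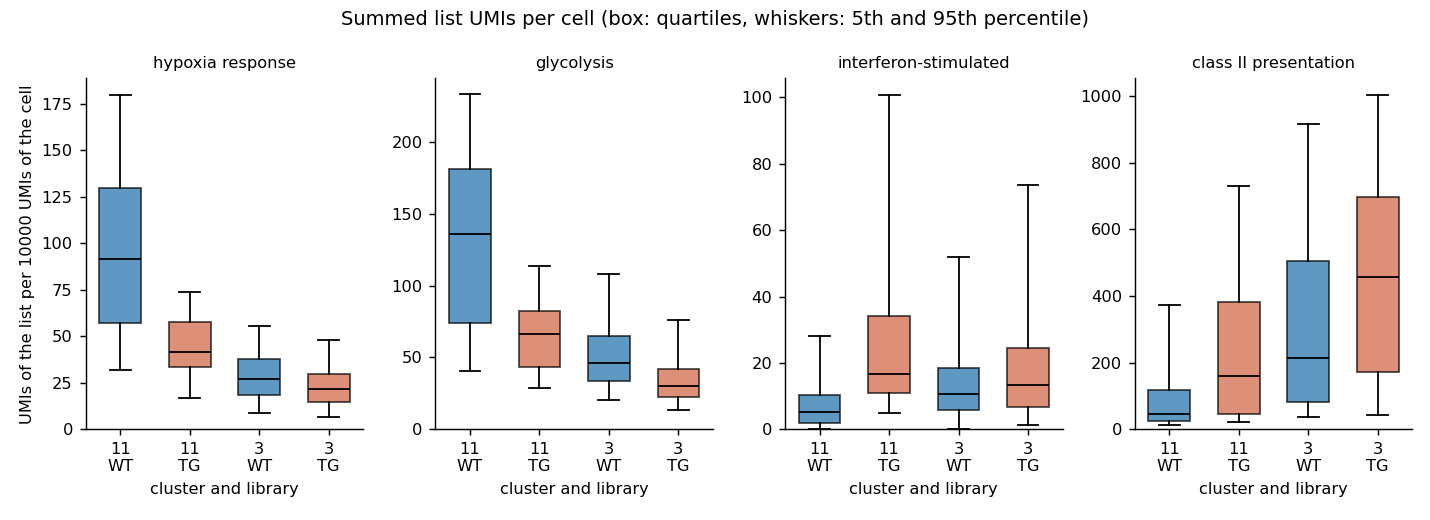
UMIs of 4 gene lists per 10000 UMIs of a cell, by cluster and library (line: median, box: quartiles, whiskers: 5th and 95th percentile). Wild type cluster 11 has medians of 91.5 for hypoxia response and 136 for glycolysis, above the other 3 groups of cells, and of 5.08 for interferon-stimulated and 46.1 for class II genes, below them.

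Interferon-stimulated genes were lower in wild type cluster 11. Of 25 tested, 14 were at least 2-fold lower than in cluster 3 and 0 at least 2-fold higher, with a median log2 ratio of −1.15 against −0.42 for all genes. Bst2, a tether of budding virus, stood at 114 against 254 CPM (0.450, 0.376 to 0.536). Gbp3, a guanylate-binding protein gene, stood at 10.6 against 59.7 CPM (0.178, 0.0953 to 0.305), and the transcription factor gene Irf7 at 35.6 against 106 CPM (0.334, 0.241 to 0.454). Ifit3 had 2 UMIs against 42 (0.117, 0.0137 to 0.450). Isg15, a ubiquitin-like modifier, was near equal at 309.6 and 315 CPM (0.984, 0.875 to 1.10), and Cxcl10, a T cell chemokine, was at 134 and 101 CPM (1.33, 1.10 to 1.60), with 96.6% of its UMIs in 5 cells. The lower level held per cell, where the median was 5.08 list UMIs per 10000 in cluster 11 and 10.5 in cluster 3. With median-of-ratios scaling the counts were 1 higher and 10 lower.

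The interferon-stimulated response element, searched as GAAANNGAAA on both strands, is shown in 3 of these genes, which had unlike ratios in the wild type library. The windows and build are as above: Isg15 is chr4:156200819-156201068 and Cxcl10 chr5:92348890-92349139, both on the minus strand, and Ifit3 is chr19:34583279-34583528 on the plus strand. Capitals mark the matches.
Isg15: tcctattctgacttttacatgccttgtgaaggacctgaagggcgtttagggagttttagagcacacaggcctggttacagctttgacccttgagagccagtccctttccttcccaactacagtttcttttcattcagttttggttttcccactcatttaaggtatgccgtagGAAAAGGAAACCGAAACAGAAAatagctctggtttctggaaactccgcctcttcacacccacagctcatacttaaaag
Ifit3: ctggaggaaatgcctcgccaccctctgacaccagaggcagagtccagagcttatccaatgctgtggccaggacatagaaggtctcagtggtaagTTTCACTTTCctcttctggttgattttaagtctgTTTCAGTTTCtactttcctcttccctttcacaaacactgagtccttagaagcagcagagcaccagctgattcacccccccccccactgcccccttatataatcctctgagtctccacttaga
Cxcl10: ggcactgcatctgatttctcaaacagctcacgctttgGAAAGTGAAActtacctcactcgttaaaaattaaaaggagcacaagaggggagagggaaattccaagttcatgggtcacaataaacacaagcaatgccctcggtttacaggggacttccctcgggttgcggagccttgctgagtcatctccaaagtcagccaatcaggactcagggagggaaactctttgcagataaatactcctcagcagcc
In Isg15 there are 3 overlapping matches between 78 and 57 bases upstream of the start, in Ifit3 2 matches on the minus strand and in Cxcl10 1 match, 213 to 204 bases upstream. Of the 26 interferon-stimulated genes 21 had a window, and 14 of them (66.7%) held the element, beside 3.04% of all promoters. Among the 467 matched genes that were higher in cluster 11 the share was 2.998%.

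Antigen presentation by MHC class II followed the same direction. Of 14 genes 9 were at least 2-fold lower and 1 higher, with a median log2 ratio of −1.66. The structural genes H2-Ab1 and H2-Aa stood at 879 against 2676 CPM (0.328, 0.309 to 0.349) and 1345 against 5046 CPM (0.267, 0.254 to 0.280). The invariant chain gene Cd74 was at 4790.2 against 15697 CPM (0.305, 0.297 to 0.313). Ciita, the master regulator of the class II genes, had 4 UMIs against 160, a ratio of 0.0615 (0.0166 to 0.161), and H2-DMa, of the peptide loader, had a ratio of 0.133 (0.108 to 0.161). The single higher gene was Cd80, a costimulatory ligand, at 111 against 37.2 CPM (2.99, 2.33 to 3.83). Mature macrophage markers were lower too, among them Cx3cr1 (0.0692, 0.0275 to 0.145), C1qa (0.178, 0.141 to 0.222), Apoe (0.174, 0.162 to 0.187) and Hpgd, with 3 UMIs against 141 (0.0523, 0.0107 to 0.156).

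The genes ranked lowest against cluster 3 included further regulators and surface proteins of monocytes. Retnla, a marker of alternative activation, had 0 UMIs against 358, a ratio of at most 0.0206 against a floor of 3 UMIs, and 97.5% of the cluster 3 UMIs lay in 5 cells. Ppfia4 had 1 UMI against 176 (0.0140, 0.000352 to 0.0789) and the transcription factor gene Batf3 had 2 against 181 (0.0272, 0.00327 to 0.0996). Selenop, a secreted selenium carrier, stood at 39.4 against 575 CPM (0.0684, 0.0509 to 0.0901), Rgs2, a brake on G protein signals, at 17.4 against 256 CPM (0.0681, 0.0429 to 0.103), and Ly86, a partner of the receptor RP105, at 56.8 against 550.1 CPM (0.103, 0.0808 to 0.130). Immediate-early and heat shock genes, which tissue dissociation induces, were also lower: 11 of 23 at least 2-fold and 2 higher, with Fos at 683 against 3419.7 CPM (0.200, 0.186 to 0.214), Atf3 (0.170, 0.147 to 0.195) and Hspa1a (0.245, 0.184 to 0.321). The part of dissociation in the contrast was not tested.

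Arginine, nitric oxide and itaconate metabolism showed both sides of the arginine branch. Of 15 tested genes 7 were at least 2-fold higher, the markers Arg1 and Nos2 among them, and 2 lower, with a median log2 ratio of 0.67. Beside Arg1 and Nos2, Arg2, the mitochondrial arginase, was at 223 against 44.9 CPM (4.95, 4.05 to 6.08). Ass1, which rebuilds arginine from citrulline, was at 608 against 118 CPM (5.17, 4.57 to 5.86), and Acod1, the itaconate-forming enzyme, at 154 against 8.31 CPM (18.6, 12.4 to 28.9). Gch1, which opens synthesis of the nitric oxide synthase cofactor, had a ratio of 2.75 (2.29 to 3.31). In polyamine synthesis Odc1, which turns ornithine into putrescine, did not reach the 2-fold limit (1.59, 1.21 to 2.08), and Srm, the spermidine synthase that acts after it, was lower with 3 UMIs against 47 (0.157, 0.0313 to 0.488).

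Fth1 had the highest level of all genes in the cluster, and most genes of its list were higher than in cluster 3. Of 19 tested genes of the NRF2 and oxidative stress list 12 were at least 2-fold higher and 1 lower, with a median log2 ratio of 1.38. Fth1 had a ratio of 5.78 (5.71 to 5.84) and was found in 100% of the cells, while the light chain gene Ftl1 was near equal (1.14, 1.11 to 1.16). The metallothioneins Mt1 and Mt2, which bind zinc and copper, stood at 6042 CPM (9.91, 9.43 to 10.4) and 608 CPM (29.5, 22.96 to 38.4). Slc7a11, the cystine importer that feeds glutathione synthesis, was at 645 against 49.5 CPM (13.02, 10.99 to 15.5) and Sod2, the mitochondrial superoxide dismutase, at 2240.3 against 258 CPM (8.67, 8.03 to 9.37). The lower gene was Ncf1, a subunit of the phagocyte oxidase (0.461, 0.366 to 0.575).

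Of 12 acute-phase and antimicrobial genes 7 were at least 2-fold higher and 2 lower, with a median log2 ratio of 1.29. The marker Saa3, at a ratio of 18.2 (17.3 to 19.2), and Slpi, at 25.2, were among the 7. Saa1, another serum amyloid gene, had the highest ratio of the list, 41.98 (24.98 to 76.1), with 69.5% of its UMIs in 5 cells. Lcn2, which captures bacterial siderophores, stood at 705 against 58.8 CPM (11.99, 10.3 to 14.1). Lrg1, a secreted glycoprotein of the acute phase, had an interval that spans 1 (1.05, 0.896 to 1.22). The lower genes were the lysozymes, Lyz2 at 2972 against 12344 CPM (0.241, 0.233 to 0.249) and Lyz1 with 3 UMIs against 76. Lcn2 and Slpi are also neutrophil transcripts.

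Among ligands, both Il1b and the antagonist of its receptor were higher. Il1b was abundant in both clusters, at 16251 against 6558 CPM (2.48, 2.43 to 2.53), whereas its receptor antagonist Il1rn was at 3142 against 219.7 CPM (14.3, 13.2 to 15.5). Nlrp3, the inflammasome sensor, was higher (3.14, 2.74 to 3.59), while Pycard, its adaptor, and Il18 were lower (0.429, 0.369 to 0.496 and 0.377, 0.242 to 0.568). In the list 5 of 12 tested were higher and 3 lower, the lower share being near the 26.2% of all genes. Of 9 CXC chemokine and receptor genes 6 were higher and 1 lower, with Cxcl2 in 96.8% of cells at a ratio of 14.2 (13.8 to 14.6). The lower one was Cxcr4, a receptor for the retention chemokine CXCL12 (0.190, 0.146 to 0.244). Of 14 CC chemokine genes 4 were higher and 5 lower.

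Of 16 cytokine and TNF family genes 11 were higher and 1 lower, with a median log2 ratio of 1.57. Tnf stood at 130.2 against 31.7 CPM (4.11, 3.20 to 5.30), with 40.7% of its UMIs in 5 cells. Il6 (3.28, 1.99 to 5.45) and the anti-inflammatory Il10 (6.09, 3.61 to 10.6) were scarce, with 40 and 52 UMIs, of which 65.0% and 75% lay in 5 cells. Il12a, a subunit of interleukin 12 and interleukin 35, had 55 UMIs against 4 (33.8, 12.5 to 129), while Il12b had 0. Tnfrsf9, a costimulatory receptor, had a ratio of 18.9 (11.9 to 31.3). Of 15 checkpoint and suppressor genes 5 were higher and 1 lower, among the higher Cd274, which encodes PD-L1, at 247 against 14.5 CPM (17.1, 12.5 to 23.7), and Nt5e, an adenosine-forming enzyme (12.1, 6.43 to 24.7).

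Matrix and repair genes were higher in number. Of 21 tested 12 were at least 2-fold higher, the marker Spp1 among them, and 1 lower, with a median log2 ratio of 1.33. Of 10 metalloproteinase genes and inhibitors 6 were higher and 2 lower. Timp1, an inhibitor of metalloproteinases, was at 1159.5 against 63.7 CPM (18.2, 15.7 to 21.2), and Mmp14, a membrane-bound collagenase, was found in 84.8% of cells at 519 against 84.6 CPM (6.14, 5.33 to 7.08). Mmp12 and Mmp13 had ratios of 14.4 and 24.95, but 76.3% and 76.1% of their UMIs lay in 5 cells. Thbs1, a matrix glycoprotein that activates TGF beta, was at 3660.2 against 1369 CPM (2.67, 2.57 to 2.79), and Nrg1, a ligand of ERBB receptors, at 357 against 49.2 CPM (7.26, 6.05 to 8.74). Areg, an epidermal growth factor receptor ligand, was the lower gene, with 24 UMIs against 119 (0.496, 0.306 to 0.774). In prostaglandin synthesis, Ptgs2 stood at 1999 against 389 CPM (5.14, 4.81 to 5.51), and Ptgs1 and the leukotriene C4 synthase gene Ltc4s were lower (0.119, 0.0239 to 0.364 and 0.0502, 0.00125 to 0.293).

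In the library labelled transgenic the cluster was a smaller part of the cells. Nfil3 itself, on chr13:52967209-52981073, stood in cluster 11 at 217 CPM in the wild type library and 293 CPM in the library labelled transgenic (1.35, 1.02 to 1.76), and in cluster 3 at 294 and 240.2 CPM (0.817, 0.729 to 0.916). Whether a transcript of the transgene would be counted as Nfil3 is not stated. Cluster 11 made up 3.36% of wild type cells (217 of 6466, 95% interval 2.93 to 3.82) and 0.726% of cells in the library labelled transgenic (51 of 7026, 0.541 to 0.953), a ratio of 0.216 (0.156 to 0.295). Of the cells of clusters 11 and 3 together it made up 25.4% (22.5 to 28.5) and 11.6% (8.73 to 14.9). With 1 library per genotype, the genotype and the library cannot be told apart. Of the 67 barcode sequences found among the metadata cells of both libraries, 0 lay in cluster 11 of both.

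The 51 cells carried less of the marker genes. Arg1 stood at 549 CPM in them against 4011 CPM in the 217 wild type cells, a ratio of 0.137 (0.114 to 0.163), and Nos2 at 331 against 1086 CPM (0.305, 0.240 to 0.382). Saa3 had a ratio of 0.131 (0.116 to 0.147) and Spp1 of 0.0416 (0.0293 to 0.0575), and 5 cells held 94.9% and 100% of the UMIs of these genes in the library labelled transgenic. The clusters were drawn over both libraries at once, so these ratios also depend on which cells were assigned. In cluster 3 the same ratio was 0.0349 (0.0150 to 0.0695) for Arg1 and 0.0516 (0.00127 to 0.308) for Nos2. Saa3 had 0.0631 (0.0480 to 0.0814) there and Spp1 0.398 (0.307 to 0.512), so the lower levels were not particular to cluster 11. Within the library labelled transgenic, cluster 11 over cluster 3 gave 127 for Arg1, 37.8 for Saa3 and 3.73 for Spp1. For Nos2 it gave 613, with 1 UMI in cluster 3. A UMI of Arg1 was found in 15 of 51 cells (29.4%), of Saa3 in 9 (17.6%), of Nos2 in 10 (19.6%) and of Spp1 in 5 (9.80%). B cells of that library gave 0.215%, 0.429%, 0.107% and 0.107% of 1864, at a median of 2288 UMIs. None of the 4 markers was found in 23 of 51 cells (45.1%) against 15 of 217 (6.91%), at median depths of 4615 and 6400 UMIs. Thinned to 2000 UMIs, Arg1 was found in 7 of 44 cells against 126 of 201. Arg1 and Nos2 were together in 2 cells, Arg1 alone in 13 and Nos2 alone in 8.

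**Figure D5:**
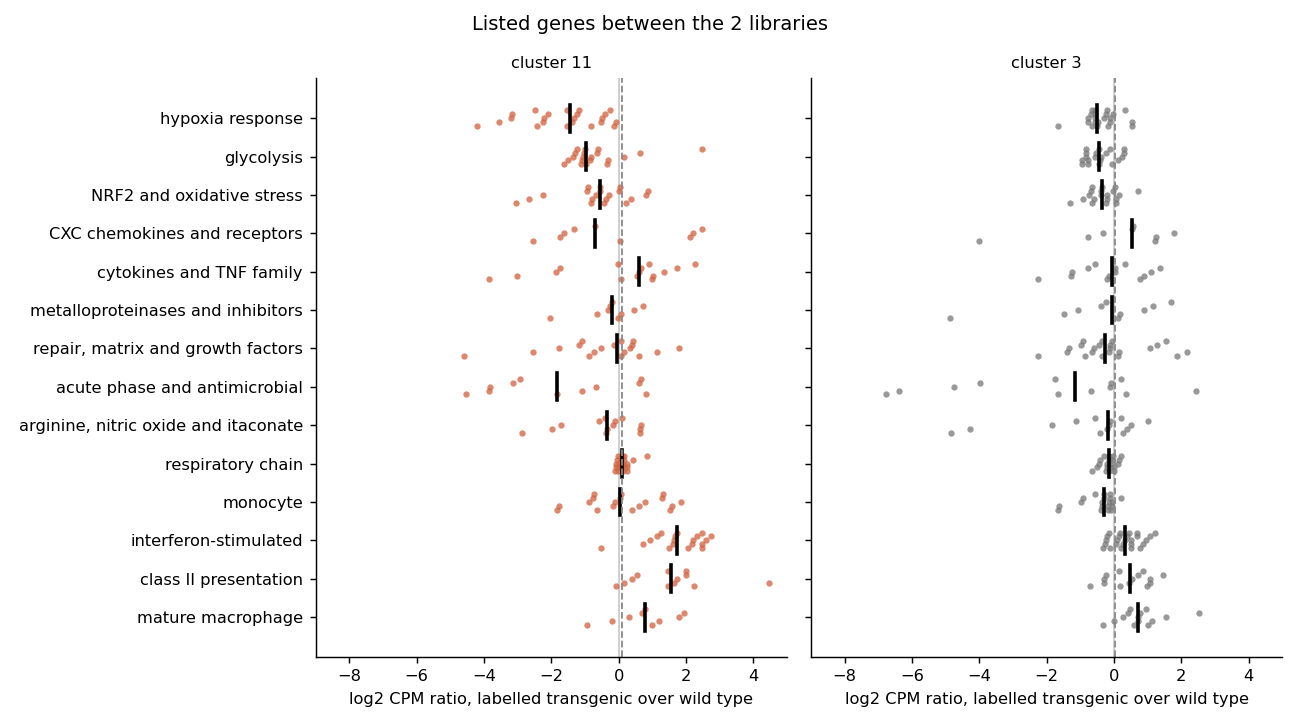
Log2 CPM ratio of the library labelled transgenic over wild type for each tested gene (points) of 14 gene lists, with the list median as a bar, in cluster 11 (left) and cluster 3 (right); the dashed line is the median of all tested genes. In cluster 11 the medians run from −1.84 for acute-phase genes to 1.74 for interferon-stimulated genes.

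Compared with wild type, cluster 11 of the library labelled transgenic had many hypoxia and glycolysis genes at lower levels and many interferon-stimulated and class II genes at higher levels. Of 5329 genes tested, 547 (10.3%) were at least 2-fold higher in the library labelled transgenic and 532 (9.98%) at least 2-fold lower, with a median log2 ratio of 0.11. Median-of-ratios scaling gave 288 higher and 871 lower, so that 24.8% of called genes were higher in place of 50.7%, and totals without the 20 most abundant genes gave 39.2%. Of 22 hypoxia genes 0 were higher and 16 lower, with a median log2 ratio of −1.45. Hilpda was at 46.1 against 859 CPM (0.0537, 0.0267 to 0.0964), Bnip3 at 67.1 against 605 CPM (0.111, 0.0631 to 0.181) and Egln3 had 4 UMIs against 262 (0.0845, 0.0229 to 0.219), whereas the Hif1a transcript was near equal at 666 and 699 CPM (0.954, 0.801 to 1.13). Of 20 glycolysis genes 1 was higher and 10 lower (median −0.98), among the lower Tpi1 (0.325, 0.254 to 0.410) and Ldha just outside the limit at 0.502 (0.434 to 0.578). Other lists that were mostly higher in wild type cluster 11 differed less or went both ways: 0 of 19 NRF2 and oxidative stress genes were higher and 3 lower, of 9 metalloproteinase genes 0 and 1, of 18 repair genes 2 and 5, and of 15 cytokine genes 5 and 4. These counts moved when the 5 cells of most UMIs of each gene were left out of each sum. In the same order they were then 0 and 10, 0 and 7, 1 and 10, and 1 and 8. Glycolysis had 1 higher and 16 lower. The removal takes 5 of 51 cells against 5 of 217, so it weighs more on the library labelled transgenic. Counts over all genes were not made for that setting, so no share can be set beside these counts.

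Interferon-stimulated and class II genes were higher. Of 19 interferon-stimulated genes 16 were at least 2-fold higher in the library labelled transgenic and 0 lower, with a median log2 ratio of 1.74. Isg15 stood at 1035 against 309.6 CPM (3.34, 2.84 to 3.93) and Bst2 at 348 against 114 CPM (3.04, 2.30 to 4.005). Per cell, the interferon list had a median of 16.7 UMIs per 10000 (quartiles 10.8 and 34.0) in the 51 cells and 5.08 (1.80 and 10.2) in the 217 wild type cells. Of 12 class II genes 8 were higher and 0 lower (median 1.56), with H2-Ab1 at 2745 against 879 CPM (3.12, 2.83 to 3.44). Ciita had 16 UMIs against 4 (22.2, 7.15 to 91.05), but the 16 lay in 7 of the 51 cells, 87.5% of them in 5. Markers of other cells moved with these genes: 3 of 9 mature macrophage genes were higher and 0 lower (summed level 2297 against 1203 CPM), 2 of 3 dendritic cell genes higher and 0 lower (1123 against 512 CPM), and 5 of 22 dissociation-induced genes higher and 0 lower. Their part in the result was not tested. These directions held with median-of-ratios scaling, where 0 hypoxia genes were higher and 17 lower, and 14 interferon-stimulated genes higher and 0 lower. Of 18 monocyte genes 5 were higher in cluster 11 of the library labelled transgenic and 2 lower, beside 10.3% and 9.98% of all genes. Ccr2 stood at 394 against 136 CPM and Ly6c2 at 411 against 114 CPM. In cluster 3 of the library labelled transgenic Ccr2 stood at 869 CPM and Ly6c2 at 462 CPM.

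The same lists differed less between the libraries in cluster 3, where 4.43% of 8947 genes were at least 2-fold higher and 2.93% lower in the library labelled transgenic. There the hypoxia list had 0 of 22 higher and 1 lower (median −0.49), glycolysis 0 of 20 either way (−0.44), interferon-stimulated genes 2 of 25 higher and 0 lower (0.33) and class II genes 3 of 14 higher and 0 lower (0.48). Per cell, the medians of the hypoxia list were 91.5, 27.2, 41.7 and 21.5 per 10000 in wild type clusters 11 and 3 and in clusters 11 and 3 of the library labelled transgenic. The difference between the clusters was not tested. Among the 176 and 18 cells of the 2 libraries, wild type first, that held at least 10 marker UMIs per 10000, 15 of 22 hypoxia genes were lower and 0 higher, 8 of 13 interferon-stimulated genes higher and 0 lower, and of 19 glycolysis genes 2 higher and 6 lower, fewer than in all cells, beside 13.4% of genes higher and 16.4% lower. That limit was chosen after the data were seen.

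Several genes of the cluster, chosen in part after their values were seen, were near equal in the libraries. Inhba stood at 679 against 686 CPM (0.990, 0.832 to 1.17), Il1b at 15478 against 16251 CPM (0.952, 0.919 to 0.986), Il1rn at 2833 against 3142 CPM (0.902, 0.830 to 0.978), Ptgs2 at 2142 against 1999 CPM (1.07, 0.973 to 1.18) and Cd274 at 264 against 247 CPM (1.07, 0.804 to 1.41). Each of these 5 was also above cluster 3 within the library labelled transgenic, where 559 of 7016 genes (7.97%) were at least 2-fold higher and 1589 (22.6%) lower. The near equality of Inhba rests on few cells: 5 of the 51 held 72.2% of its UMIs, against 29.0% in 5 wild type cells. It was found in 41.2% of the 51 cells and 58.1% of the wild type cells. Ptges, which acts after Ptgs2 in the same pathway, was not near equal: it had 10 UMIs against 492 (0.113, 0.0536 to 0.209). Within that library 6 of 20 hypoxia genes, 10 of 18 glycolysis genes and 9 of 11 cytokine genes were higher in cluster 11 than in cluster 3, and the interferon-stimulated list had 5 of 25 higher and 2 lower. Without the 5 cells of most UMIs of each gene, the hypoxia list had 4 higher and 5 lower, glycolysis 4 and 1, and cytokines 4 and 2. Interferon-stimulated genes had 2 higher and 13 lower. The removal takes 5 of 51 cells in cluster 11 and 5 of 390 in cluster 3. Counts over all genes were not made for it. Cytokines went both ways between the libraries, as Tnf and Il6 were higher in the library labelled transgenic (3.32, 2.57 to 4.26 and 4.85, 2.99 to 7.82) and Csf3 lower (0.278, 0.163 to 0.445). The higher values of 2 of them did not hold under alternatives. Without the 5 cells of most UMIs of each cluster Tnf had a ratio of 0.767. Among cells with at least 10 marker UMIs per 10000 Il6 had a ratio of 0.992.

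Some of the genes ranked first between the libraries within cluster 11 also differed in other clusters. S100a8 had 2 UMIs in the library labelled transgenic against 2665 (0.00416, 0.000503 to 0.0150) and S100a9 1 against 1232 (0.00449, 0.000114 to 0.0251), and in cluster 3 their ratios were 0.00688 (0.00276 to 0.0142) and 0.00627 (0.00270 to 0.0124). B cells of cluster 0 differed likewise: S100a8 was found in 31.1% of them at 161 CPM in wild type and in 1.39% at 6.78 CPM in the library labelled transgenic. Lcn2 was likewise lower in both clusters (0.0714, 0.0367 to 0.125 and 0.00918, 0.000231 to 0.0518). Hilpda, also among the 5 lowest in cluster 11, had a ratio of 0.928 (0.689 to 1.24) in cluster 3. On the higher side Bex3 had ratios of 7.23 (4.91 to 10.7) in cluster 11 and 9.55 (7.28 to 12.7) in cluster 3, and Cd83, an activation marker of antigen-presenting cells, of 10.7 (7.56 to 15.4) and 2.87 (2.58 to 3.19). Ccl5 was 11.6 times its wild type level, though 5 of the 51 cells held 89.5% of it. T cell and innate lymphoid markers summed to 145 and 214 CPM in cluster 11 of the wild type library and of the library labelled transgenic, and their part in these ratios was not tested.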

How the data were processed

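Single-cell RNA libraries were made with 10x Genomics 5' chemistry, per the labels' protocols. Cell Ranger 5.0.0, Seurat 4.0 and the build mm10 appear in the submitters' processing notes, without a role for each. The authors deposited UMI counts per gene and barcode for 32285 genes, and a cell table whose columns, per the file headers, hold counts per cell, the percent of mitochondrial and immunoglobulin UMIs, the library and the cluster numbers. The cell filter is not given in the sources used here. The deposited cells lie under 2200 genes.

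Metadata cells were matched to counts by barcode, and cells of clusters 11 and 3 were summed per library (Python 3.11.15, numpy 2.4.6, pandas 2.3.3). CPM is the sum divided by its total. Genes needed 20 UMIs over both sums, and a gene is called at a ratio of 2 or more, or 0.5 or less. Exact 95% intervals are Poisson for levels, conditional binomial for ratios and Clopper-Pearson for shares (scipy 1.17.1). A fold against 0 UMIs uses a floor of 3 counts. With 1 library per genotype no p-value is given. The functions were tested on simulated data.

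Earlier results of these data were known when the cells, the 32 gene lists, the naming rule and the alternatives were chosen. Named genes are 20 fixed ones, the 20 each way in wild type (at least 50 UMIs) and the 5 each way between libraries by the interval bound nearest to 1, and up to 6 per list; a few are not reported here. Ly6g, Il12b, Flt3, Cd3e, Pycard, Odc1, Ftl1 and a few other single genes were chosen after their values were seen. Ratios of genes that share sequence with paralogs, such as S100a8, the Gbp and class II genes, depend on how the authors' counting split such reads. Doublets were scored with Scrublet (scanpy 1.11.5), and the 8% highest per library were removed in an alternative, which took 6 of the 217 and 0 of the 51 cells. The rest were scaling by the median of ratios, totals without 20 genes, minimums of 10 and 50 UMIs and the mean of per-cell CPM. Barcodes above 2200 genes were assigned to the likeliest cluster profile (multinomial, pseudocount 0.1). Promoter windows are from RefSeq, GRCm38.p6, with the first listed window taken for each gene.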

Additional observations from a re-analysis of the deposited data

Results flagged for a closer look

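The interferon-stimulated list lay on opposite sides of equality in the libraries: its median log2 ratio of cluster 11 over cluster 3 was −1.15 in wild type and 0.33 in the library labelled transgenic. The difference was not tested, since each genotype has 1 library. It rests on few cells: without the 5 cells of most UMIs of each gene, 2 of 25 genes were higher and 13 lower within the library labelled transgenic, and 0 higher and 22 lower in wild type.

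The deposited cell table leaves out barcodes with more than 2200 genes, and 87 of 1718 such wild type barcodes had counts most like cluster 11, with 655 most like cluster 3. In the library labelled transgenic the numbers were 4 and 93 of 1290. Of 98 held-out wild type cluster 11 cells 96.9% were assigned back to it, and 79.2% of the cells so assigned were right. In the library labelled transgenic 66.7% of 24 held-out cluster 11 cells were assigned back. The 87 barcodes had a median of 10277 UMIs. Against the 655 they had Arg1 at 2309 and 114 CPM (ratio 20.2, 18.6 to 21.9), Saa3 at a ratio of 13.5, Nos2 at 55.1, Spp1 at 28.4 and Ptges at 44.8. Assignment used these genes, so their levels describe the barcodes. Of 22 hypoxia genes 15 were at least 2-fold higher there and 0 lower, and of 25 interferon-stimulated genes 1 was higher and 12 lower, beside 5.91% and 22.4% of 9806 genes. Hilpda had a ratio of 6.45 and Csf3 of 9.20, below their values in the deposited cells.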

How the results depend on the processing

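No paired analysis was possible because each genotype has 1 library, and leaving out a replicate was not possible for the same reason. Depth limits the 51 cells of the library labelled transgenic most: 5329 genes could be tested between the libraries against 8472 within wild type. Median-of-ratios scaling gave 987 genes higher and 1421 lower in wild type cluster 11 than in cluster 3, and 288 higher and 871 lower between the libraries. A minimum of 50 UMIs, which tests fewer genes, gave 1429 lower in wild type, 327 higher and 739 lower in the library labelled transgenic, and 207 higher and 230 lower between the libraries, where a minimum of 10 gave 919 and 908. Of clusters 11 and 3 alone, cluster 11 made up 25.4% and 11.6%. Removing the highest doublet scores and the mean of per-cell CPM left all counts of called genes within 1.5 times.

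Chosen after seeing the data were the cells with marker UMIs, the cells placed in cluster 3 at resolution 0.4, and the removal of the 5 cells of most UMIs per gene. Of 3076 values of named genes under alternatives, 11 changed side and 654 moved beyond their interval. With marker-bearing cells only, Ifit3 within the library labelled transgenic had a ratio of cluster 11 over cluster 3 of 1.04 and Cxcl9 of 0.426, and Il6 between the libraries had 0.992. Without the 5 cells, the ratios within the library labelled transgenic were 0 for Spp1, 0 for Il10, 0 for Ifit1, 0.306 for Cxcl1 and 0.443 for Cxcl9, and between the libraries 0.767 for Tnf, 0 for Gbp7 and 0.883 for C1qa. The 5 cells are a larger part of 51 than of 217, and counts over all genes were not made without them. Without them 22 of 25 interferon-stimulated genes were lower in wild type cluster 11 and 0 higher, within the library labelled transgenic 2 of 25 were higher and 13 lower in place of 5 and 2, and between the libraries 11 of 19 were higher and 2 lower.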

Other observations

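Of 16 lipid handling genes tested in wild type cluster 11, 6 were at least 2-fold higher than in cluster 3 and 5 lower, beside 7.16% and 26.2% of all genes. Abca1, the cholesterol efflux pump, had a ratio of 6.18, while Apoe was lower at 0.174. Genes of the amino acid and endoplasmic reticulum stress response were near the level of cluster 3, with 1 of 13 higher and 1 lower and a median log2 ratio of −0.02. Of 18 complement and Fc receptor genes 4 were higher and 3 lower. Of 9 cell cycle genes tested, 1 was higher and 3 lower. Clock genes and targets of the D-box, the motif that E4BP4 binds, had 1 of 6 higher and 1 lower in wild type, and 0 of 4 either way between the libraries in cluster 11.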
